A study of Mus musculus with 6 samples.

Results

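The cytosolic ribosome is built from ribosomal RNA and about equal numbers of each ribosomal protein, so the genes that encode these proteins are usually expressed together and are among the most abundant mRNAs of a cell. Their mRNAs typically begin with a pyrimidine-rich stretch, the 5′ TOP motif, through which mTOR signalling controls their translation. Being highly expressed, they have left many processed pseudogenes in mammalian genomes, which are reverse-transcribed copies that can differ from the parent mRNA at very few bases. The cytosolic ribosomal protein genes were taken by symbol, as Rpl or Rps followed by a number and an optional a, x, l or y, together with Rplp0, Rplp1, Rplp2 and Rpsa. This gave 83 of the 40564 genes counted, of which 32 belong to the small subunit and 51 to the large subunit. Rpl6l, Rpl32l and Rps4l are annotated as pseudogenes and were kept because the symbol rule takes them.

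RNA was sequenced in bulk from mouse bronchoalveolar lavage cells, the immune cells washed from the airways, which were labelled as untreated. There were 2 libraries labelled Double KO and titled Cis Stat6 KO (called Cis_Stat6_KO here), 2 labelled KO and titled Cis KO (called Cis_KO), and 2 labelled WT. Cis, encoded by Cish, is an inhibitor of cytokine receptor signalling that is induced through STAT proteins, and Stat6 transmits signals of interleukin 4 and interleukin 13. Both knockout groups lack Cis, and the Cis_Stat6_KO group lacks Stat6 as well. The labels give neither strain, age and sex nor the way the alleles were made, and do not say whether replicates came from separate animals or from pools, and p-values here cover only the variation among these samples, which may be technical. In bulk RNA, a change in the mix of cells and a change of RNA per cell cannot be told apart.

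The deposited counts summed to 65575418 and 52151440 in the Cis_Stat6_KO libraries, 59414192 and 50762354 in the Cis_KO libraries, and 55129216 and 65937118 in the WT libraries. Levels below are read counts scaled to library totals with TMM factors (CPM), unless given as FPKM, which is also divided by gene length. Cish, the targeted gene, had 1.72 and 5.04 CPM in Cis_Stat6_KO and 4.34 and 3.52 CPM in Cis_KO, against 46.2 and 56.2 CPM in WT. Stat6 had 31.6 and 25.5 CPM in Cis_Stat6_KO, against 264 and 221 CPM in Cis_KO and 233 and 227 CPM in WT, so both targets followed the labels. Cis_KO replicate 2 stood apart from the other 5 libraries. Haemoglobin genes took 3.29% of its counts and at most 0.0366% of any other library's, it had counts on 15855 genes where the others had 19641 to 20431, and the 7 erythroid markers summed to 38668 CPM against 14.96 to 353 CPM elsewhere. Its 8 B cell markers summed to 102 CPM against 0.491 to 17.2 CPM, its 8 lung epithelial markers to 196 CPM against 14.6 to 90.9 CPM, and its 9 neutrophil markers to 538 CPM against 95.5 to 256 CPM. The 10 alveolar macrophage markers were detected in every library and summed to 30203 and 39371 CPM in Cis_Stat6_KO, 18613 and 14044 CPM in Cis_KO, and 14611 and 22126 CPM in WT. Chil3 alone made up 22278 and 31128 CPM in Cis_Stat6_KO, 11570 and 6881 CPM in Cis_KO, and 8777 and 15011 CPM in WT. In Cis_Stat6_KO against Cis_KO, 6 of the 10 markers were positive and 4 negative, with a median log2 fold change of 0.17. The 9 T and NK cell markers summed to 5.98 to 24.0 CPM and 6 dendritic cell markers to 8.58 to 31.8 CPM. With all 6 libraries, edgeR called 0 genes of these marker lists in each comparison. In any comparison at most 5 of the 9 neutrophil markers, and fewer of each other list, had an unadjusted p under 0.05. The part of these differences in the results on ribosomal protein genes was not tested. In comparisons with Cis_KO, the family's medians and counts are given with and without Cis_KO replicate 2. So are the medians of the translation gene lists and the members tested in detail. The calls in the marker lists are given for all 6 libraries only. Leaving out either Cis_KO library leaves a single one, which the fit then assumes to vary like the other genotypes, so a smaller p there is not firmer support.

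Rpl29 and Rpl30 were counted very differently in the mutants and in WT, and their sequences are shown first. Both have pseudogene copies that are nearly the same over the whole coding sequence. A read within the coding sequence can therefore be told from a read of the copy only where it covers a differing base. Bases outside the coding sequence were not compared. Positions count from 1 at the first base of the parent's coding sequence, and each substitution gives the parent's base, the position and the copy's base. Over the 345 coding bases of Rpl30, the copy Gm12191 differs by G96A alone. Rpl30 lies on chromosome 15 (mm10, chr15:34440505-34443259, minus strand) and Gm12191 on chromosome 11 (chr11:49678710-49679057, minus strand). The lines below give bases 81 to 111 of the coding sequence, from the GENCODE M21 transcripts, with the differing base in capitals.
Rpl30: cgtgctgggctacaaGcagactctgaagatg
Gm12191: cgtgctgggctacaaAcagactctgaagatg

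Over the 480 coding bases of Rpl29, the copies Gm13841 and Gm8210 differ from the parent by C72A, C300T and T423C, and from each other at 0 bases. Rpl29 lies on chromosome 9 (chr9:106429454-106431568, plus strand), 864 kb from Cish. Gm13841 lies on chromosome 5 (chr5:115801677-115802159, minus strand) and Gm8210 on chromosome 1 (chr1:43189156-43189638, plus strand). A further copy, Gm10709 (chr9:7751725-7752204, plus strand), shares C300T and T423C but keeps the parent's base at 72, and carries G205A and G457A. The lines give bases 57 to 87, where the most counted copies part from the gene and from Gm10709, and then bases 285 to 315, where the 3 copies share a base that the gene lacks.
Rpl29, bases 57 to 87: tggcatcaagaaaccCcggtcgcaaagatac
Gm13841 and Gm8210, bases 57 to 87: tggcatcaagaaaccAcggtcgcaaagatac
Gm10709, bases 57 to 87: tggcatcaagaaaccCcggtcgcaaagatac
Rpl29, bases 285 to 315: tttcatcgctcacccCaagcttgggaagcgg
Gm13841, Gm8210 and Gm10709, bases 285 to 315: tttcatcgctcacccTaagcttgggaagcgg

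Some short sequences at the start of transcription, which the symbol rule did not use, were more frequent among the members than among all start regions. RefSeq start regions (GRCm38.p6, the assembly of mm10) were matched for 61 of the 83 members, with 73 regions of 300 bases, 250 before and 50 after the start. On the gene strand, a run of at least 7 pyrimidines beginning with C lay within bases -10 to 11 of the start in 37.0% of the member regions and in 10.0% of all 32851 regions. Among 15 short strings searched on both strands, CTTCCG was held by 60.3% of the member regions and 16.9% of all regions, CCGGAA, which can overlap its reverse complement, by 46.6% and 14.9%, and TATAAA by 9.59% and 13.6%. A match describes these letters and is not evidence of a bound factor. The regions below run from 25 bases before the start and carry in capitals the pyrimidine run from its first C within the searched bases. In Rpl34 the pyrimidines begin earlier, so the capitals mark only the part from base -10 on. Rps6 is a small-subunit protein phosphorylated downstream of mTOR, and Rps18 is a component of the head of the small subunit. Rpl34 is the member with the largest difference between replicates.
Rps6, chr4:86857343-86857392, minus strand: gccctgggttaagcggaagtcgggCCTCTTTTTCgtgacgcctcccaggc
Rps18, chr17:33955641-33955690, minus strand: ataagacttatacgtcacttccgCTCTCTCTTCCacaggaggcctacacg
Rpl34, chr3:130730313-130730362, minus strand: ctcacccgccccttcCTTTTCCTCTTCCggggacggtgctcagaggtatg

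As a family, the members were highest in Cis_KO replicate 2 and otherwise differed little between libraries. They took 3.11% and 3.05% of all counts in Cis_Stat6_KO, 3.78% and 5.19% in Cis_KO, and 3.25% and 3.63% in WT. Without rRNA-like, haemoglobin and mitochondrial counts, they took 3.33% and 3.56% in Cis_Stat6_KO, 4.13% and 6.28% in Cis_KO, and 3.64% and 3.99% in WT. Their summed level was 29468 and 32717 CPM in Cis_Stat6_KO, 35081 and 60212 CPM in Cis_KO, and 30906 and 35024 CPM in WT. Cis_KO replicate 2 was thus far above every other library, while Cis_KO replicate 1 lay close to WT replicate 2 and the Cis_Stat6_KO range overlapped the WT range. Of the 79 members with a mean of at least 5 CPM, 70 had their highest level in Cis_KO replicate 2. The lowest level fell most often in Cis_Stat6_KO replicate 1, for 43 members, and in WT replicate 1, for 22. Both subunits moved alike: in Cis_KO replicate 2 the median over the WT mean was 0.97 on the log2 scale for small-subunit members and 0.83 for large-subunit members.

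**Figure D1:**
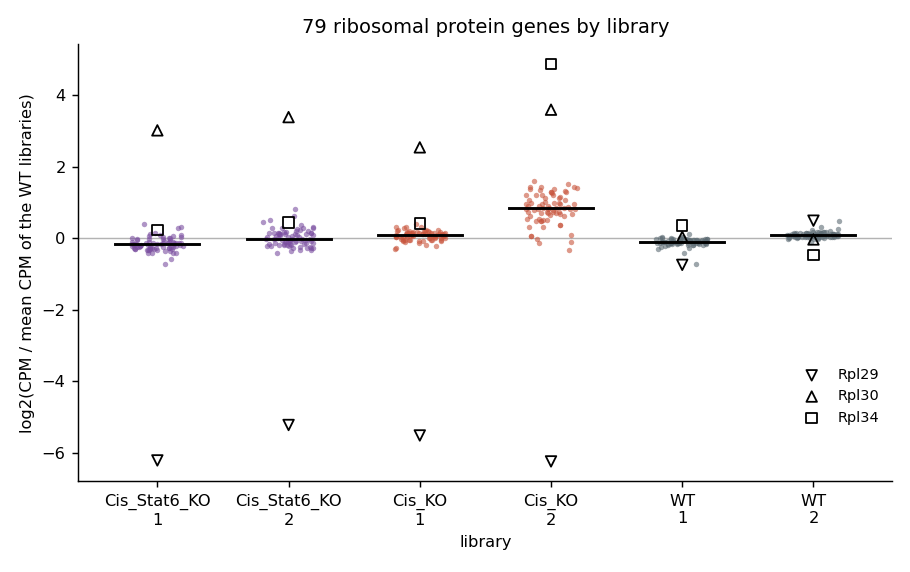
Each point is 1 of 79 members with a mean of at least 5 CPM, the y axis is log2 of its CPM over its mean in the 2 WT libraries, the bar is the median of the library, and Rpl29, Rpl30 and Rpl34 have their own symbols. The medians were -0.17 and -0.01 in Cis_Stat6_KO, 0.09 and 0.85 in Cis_KO, and -0.09 and 0.09 in WT, and Rpl29 and Rpl30 lie far from the rest in all 4 mutant libraries.

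Per length, Rplp1 was the most abundant member, with 1357 and 1281 FPKM in Cis_Stat6_KO, 1744 and 2370 FPKM in Cis_KO, and 1482 and 1730 FPKM in WT. It encodes one of the acidic stalk proteins, which recruit the translation factors that hydrolyse GTP. Rps15, a protein of the small subunit head, had 525 and 481 FPKM in Cis_Stat6_KO, 680 and 1436 FPKM in Cis_KO, and 561 and 579 FPKM in WT. Rpl10, which joins the large subunit late in its maturation, had 546 and 462 FPKM in Cis_Stat6_KO, 697 and 890 FPKM in Cis_KO, and 575 and 621 FPKM in WT. Rpl19, a protein of the large subunit, had 487 and 534 FPKM in Cis_Stat6_KO, 588 and 851 FPKM in Cis_KO, and 536 and 572 FPKM in WT. Rps15, Rpl10 and Rpl19 overlapped in every genotype, except that Rpl10 lay just above Rpl19 in WT, so their order is not settled by these libraries.

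Most members kept a nearly constant ratio to the family. After the family median of each library was taken away, the SD of a member's log2 level over the 6 libraries had a median of 0.18 and a minimum of 0.04, for Rpl27a. Rpl27a, in the large subunit, had 316 and 351 CPM in Cis_Stat6_KO, 384 and 620 CPM in Cis_KO, and 365 and 388 CPM in WT. Rpl23a, which lies at the exit of the peptide tunnel, had 386 and 413 CPM in Cis_Stat6_KO, 454 and 733 CPM in Cis_KO, and 390 and 422 CPM in WT, and Rpsa, a small-subunit protein also known as a laminin receptor, had 1008 and 1108 CPM in Cis_Stat6_KO, 1303 and 1956 CPM in Cis_KO, and 1138 and 1314 CPM in WT. These genes therefore carry the shared pattern with little of their own. The members farthest from the family were Rpl29 with an SD of 3.09, Rpl34 with 1.64 and Rpl30 with 1.57, followed by Rpl7a with 0.51, Rpl4 with 0.49 and Rpl21 with 0.46.

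Rpl29, a large-subunit protein not present in bacterial ribosomes, was nearly uncounted in the mutants. It had 1.68 and 3.33 CPM in Cis_Stat6_KO and 2.72 and 1.64 CPM in Cis_KO, against 74.3 and 175 CPM in WT. The mutant and WT libraries did not overlap. Its log2 fold change was -5.65 ± 0.60 (SE) in Cis_Stat6_KO against WT, with an adjusted p of 0.042, and -5.83 ± 0.61 in Cis_KO against WT, at an adjusted p of 0.0317, by edgeR's quasi-likelihood test with Benjamini-Hochberg adjustment over 16765 genes. It was 0.18 ± 0.52 in Cis_Stat6_KO against Cis_KO, with an adjusted p of 0.885. The background is low: 0.131% of all genes tested were called in Cis_Stat6_KO against WT and 0.274% in Cis_KO against WT. The direction held with each library left out, but the call did not. By the same edgeR test, the adjusted p in Cis_Stat6_KO against WT was 0.267 without Cis_Stat6_KO replicate 1, 0.315 without its replicate 2 and 0.0719 without WT replicate 2, and in Cis_KO against WT it was 0.0677, 0.0736 and 0.0585 without the same libraries. Without Cis_KO replicate 2 the change in Cis_KO against WT was -5.52 ± 0.68, with 1 Cis_KO library left.

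In sum, the near-identical copies of Rpl29 were higher in each mutant library than in either WT library, the opposite order to the gene. The 26 copies, annotated pseudogenes with at least 95% identity over at least 80% of the coding sequence, summed to 224 and 241 CPM in Cis_Stat6_KO and 265 and 500 CPM in Cis_KO, against 143 and 80.1 CPM in WT. With the gene itself the sum was 226 and 244 CPM in Cis_Stat6_KO, 267 and 501 CPM in Cis_KO, and 218 and 255 CPM in WT. The sum thus overlapped between Cis_Stat6_KO and WT, while both Cis_KO libraries lay above both WT libraries. The refitted log2 fold change of the sum was -0.01 ± 0.30 in Cis_Stat6_KO against WT and 0.71 ± 0.30 in Cis_KO against WT, with adjusted p-values of 1 and 0.444 by edgeR's quasi-likelihood test. Without Cis_KO replicate 2, the value in Cis_KO against WT was 0.18 ± 0.16. Counts of Rpl29 as a gene of its own and as a group with its copies therefore gave different answers, and the sources used here do not state how reads that match several loci were counted. The sum leaves out Uimc1, a protein-coding gene that matches Rpl29 on the opposite strand, at 99.76% identity over at least 80% of the coding sequence. Uimc1 had 33.1 and 28.8 CPM in Cis_Stat6_KO, 38.0 and 19.0 CPM in Cis_KO, and 69.9 and 102 CPM in WT. Whether it shares reads with Rpl29 was not tested.

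A pair of copies held most of these counts. Gm13841 had 99.2 and 105 CPM in Cis_Stat6_KO and 117 and 220 CPM in Cis_KO, against 63.5 and 36.7 CPM in WT. Gm8210 had 103 and 105 CPM in Cis_Stat6_KO and 120 and 196 CPM in Cis_KO, against 53.9 and 12.8 CPM in WT. Neither was called in any comparison, with adjusted p-values from 0.224 to 0.851 by edgeR's quasi-likelihood test. Although the 2 copies have the same coding sequence, Gm13841 had the higher count in WT replicate 2, while both were within the same range in Cis_Stat6_KO. Gm10709, a copy that keeps the parent's base at 72, followed the parent: it had 0.910 and 1.27 CPM in Cis_Stat6_KO and 1.03 and 1.39 CPM in Cis_KO, against 8.78 and 15.5 CPM in WT. The copies Gm14036, Gm6344 and Gm15454 also keep that base but were higher in each mutant library than in either WT library. Gm14036 had 11.9 and 15.3 CPM in Cis_Stat6_KO and 15.8 and 44.8 CPM in Cis_KO, against 9.64 and 6.47 CPM in WT. The little-counted Gm17669 keeps it as well and was lower in the mutants. The 3 pseudogenes named after the gene (Rpl29-ps and a number) added almost nothing, and the sum with them was 2.04 and 3.62 CPM in Cis_Stat6_KO and 2.86 and 1.90 CPM in Cis_KO, against 74.5 and 175 CPM in WT.

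Rpl30, a large-subunit protein that in yeast regulates the splicing of its own mRNA, showed the mirror pattern. It had 273 and 353 CPM in Cis_Stat6_KO and 196 and 408 CPM in Cis_KO, against 34.6 and 32.9 CPM in WT. All 4 mutant libraries lay above both WT libraries. The log2 fold change was 3.21 ± 0.37 in Cis_Stat6_KO against WT, with an adjusted p of 0.0512 that missed the threshold of 0.05, and 3.16 ± 0.37 in Cis_KO against WT, at an adjusted p of 0.0441, by edgeR's quasi-likelihood test. Between Cis_Stat6_KO and Cis_KO it was 0.05 ± 0.34, with an adjusted p of 0.953. Without Cis_KO replicate 2 the change in Cis_KO against WT was 2.54 ± 0.18, with 1 Cis_KO library left. The call in Cis_KO against WT was lost by the same edgeR test without Cis_Stat6_KO replicate 1 or 2, at adjusted p-values of 0.114 and 0.106, and without WT replicate 1 or 2, at 0.221 and 0.266. In Cis_Stat6_KO against WT the threshold was passed under 10 alternatives and missed under 14.

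For Rpl30, too, the copies in sum had the opposite order to the gene. Its 12 copies summed to 79.6 and 108 CPM in Cis_Stat6_KO and 204 and 207 CPM in Cis_KO, against 292 and 344 CPM in WT. Most of this was Gm12191, with 43.6 and 56.3 CPM in Cis_Stat6_KO and 162 and 109 CPM in Cis_KO, against 241 and 285 CPM in WT. The less counted Rpl30-ps9 was also lower in the mutants, with 2.89 and 4.79 CPM in Cis_Stat6_KO and 15.3 and 9.45 CPM in Cis_KO, against 26.1 and 29.8 CPM in WT. Rpl30-ps1 went with the gene, with 7.76 and 8.41 CPM in Cis_Stat6_KO and 3.97 and 13.9 CPM in Cis_KO, against 2.04 and 2.12 CPM in WT. Gm12191 fell in Cis_Stat6_KO against WT, by 2.40 ± 0.26 on the log2 scale (adjusted p = 0.0448, edgeR's quasi-likelihood test), and was -0.96 ± 0.25 in Cis_KO against WT (adjusted p = 0.349). The gene and its copies together had 353 and 461 CPM in Cis_Stat6_KO, 400 and 615 CPM in Cis_KO, and 326 and 377 CPM in WT. The refitted log2 fold change of this sum was 0.21 ± 0.26 in Cis_Stat6_KO against WT and 0.54 ± 0.27 in Cis_KO against WT, with adjusted p-values of 1 and 0.459 by the same edgeR test. Without Cis_KO replicate 2, the value in Cis_KO against WT was 0.19 ± 0.19. With only the 6 pseudogenes named after the gene added, mutants and WT still did not overlap, at 309 and 404 CPM in Cis_Stat6_KO and 237 and 506 CPM in Cis_KO, against 84.4 and 90.4 CPM in WT. That sum was not called: its change was 2.03 ± 0.37 in Cis_Stat6_KO against WT and 2.09 ± 0.37 in Cis_KO against WT, with adjusted p-values of 0.19 and 0.123 by the same edgeR test. The named pseudogenes leave out Gm12191, which carries no such name.

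**Figure D2:**
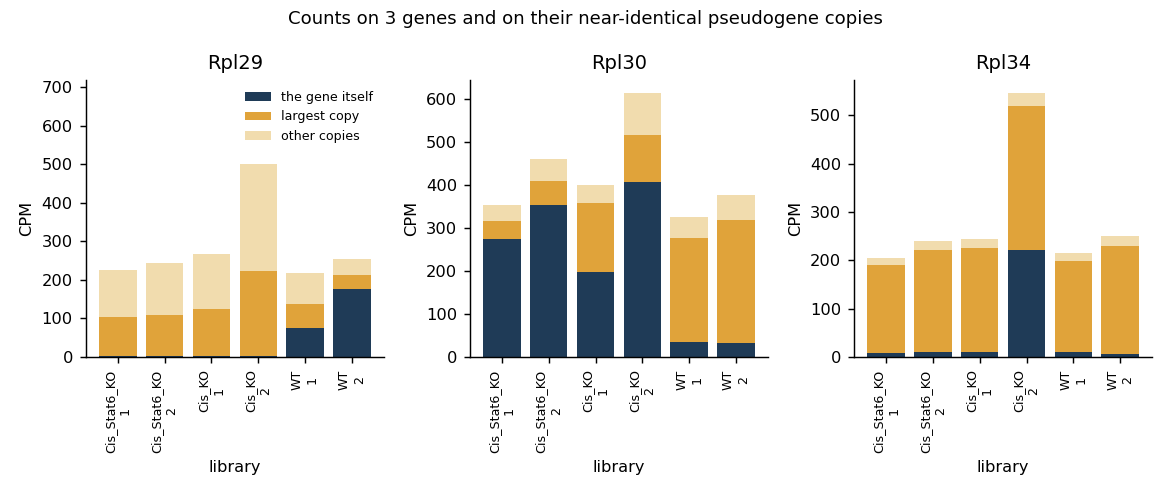
Stacked bars give CPM per library for the gene itself, its most counted copy in that library (Gm13841 or Gm8210 for Rpl29, Gm12191 for Rpl30, Rpl34-ps1 for Rpl34) and its other copies. The gene's own part of the bar differs between mutants and WT for Rpl29 and Rpl30, while the whole bars of Rpl29 run from 218 to 267 CPM and those of Rpl30 from 326 to 461 CPM outside Cis_KO replicate 2.

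Rpl34, of the large subunit, stood out in a single library. It had 8.87 and 10.3 CPM in Cis_Stat6_KO and 10.0 and 222 CPM in Cis_KO, against 9.64 and 5.47 CPM in WT. Its copy Rpl34-ps1, which differs by T132C and C318G over 351 coding bases, held most of the counts in each library. Gene and copies together had 206 and 241 CPM in Cis_Stat6_KO, 244 and 546 CPM in Cis_KO, and 214 and 251 CPM in WT. The fitted change of Rpl34 in Cis_KO against WT was 3.94 ± 1.24 on the log2 scale (adjusted p = 0.417, edgeR's quasi-likelihood test) and 0.41 ± 0.35 without Cis_KO replicate 2.

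Near-identical copies were common across the family. Of the 80 members annotated as protein-coding, 71 had at least 1 of 524 copies, and 468 copies had a count. Copies outnumbered the gene in every library for 4 members, Rpl7a, Rpl17, Rpl21 and Rpl34, and in some library for 6, with Rpl29 and Rpl30 added. Rpl7a, a large-subunit protein, had 221 and 295 CPM in Cis_Stat6_KO, 161 and 211 CPM in Cis_KO, and 127 and 210 CPM in WT, and its copies took 55.0% to 82.5% of the joint count. Rpl21, also of the large subunit, had 30.9 and 32.8 CPM in Cis_Stat6_KO, 21.1 and 49.6 CPM in Cis_KO, and 15.5 and 35.5 CPM in WT, and its 53 copies took 85.2% to 92.3%. When copies were added to each member, the SD around the family median became 0.12 for Rpl29, 0.15 for Rpl30, 0.19 for Rpl34 and 0.09 for Rpl7a, near the median of 0.16 for all 79. The members farthest from the family were then Rpl4 with 0.49 and Rpl5 with 0.44. Copies Gm10163 and Gm10240 of Rpl21, and Gm8226 and Rpl7a-ps11 of Rpl7a, had counts within 5% of each other in every library, so the sums for Rpl7a and Rpl21 may hold a read more than once, which was not tested.

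Rpl4 and Rpl5 have few reads on copies, at most 0.22% and 14.8% of their joint counts, and differed from the family in another way. Rpl4, which lines the peptide exit tunnel, had 756 and 810 CPM in Cis_Stat6_KO, 639 and 590 CPM in Cis_KO, and 636 and 861 CPM in WT. Rpl5, which with Rpl11 and 5S rRNA can bind Mdm2 under ribosomal stress, had 612 and 723 CPM in Cis_Stat6_KO, 544 and 527 CPM in Cis_KO, and 502 and 654 CPM in WT. Neither shared the high level of the family in Cis_KO replicate 2. Its partner Rpl11 did, with 280 and 343 CPM in Cis_Stat6_KO, 237 and 415 CPM in Cis_KO, and 229 and 273 CPM in WT. Rps6 stayed low there as well, with 534 and 587 CPM in Cis_Stat6_KO, 487 and 551 CPM in Cis_KO, and 480 and 583 CPM in WT. Rps19, a small-subunit gene mutated in Diamond-Blackfan anaemia, was at the other end, with 294 and 361 CPM in Cis_Stat6_KO, 376 and 1014 CPM in Cis_KO, and 368 and 384 CPM in WT.

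This spread inside the family went with base composition. Across 74 protein-coding members with a mean of at least 5 CPM, without Rpl29, Rpl30 and Rpl34, the log2 difference between Cis_KO replicate 2 and replicate 1 had a Pearson r of 0.60 and a Spearman rho of 0.60 with the G and C share of the coding sequence. The median difference was 0.49 for the 24 members with the lowest share (median 48.8% G and C) and 1.09 for the 24 with the highest (median 56.8%). The same correlation was -0.33 (Pearson) between Cis_Stat6_KO replicates 2 and 1 and -0.40 between WT replicates 2 and 1, so replicates of every genotype differed along this axis. The genes are not independent, they share the same libraries, and no p is given. With Rpl29, Rpl30 and Rpl34 included the first correlation was 0.28 (Pearson) and 0.50 (Spearman), and with coding length in place of composition it was -0.37 and -0.27 over the 74. The part of base composition in the level of the family was not tested.

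**Figure D3:**
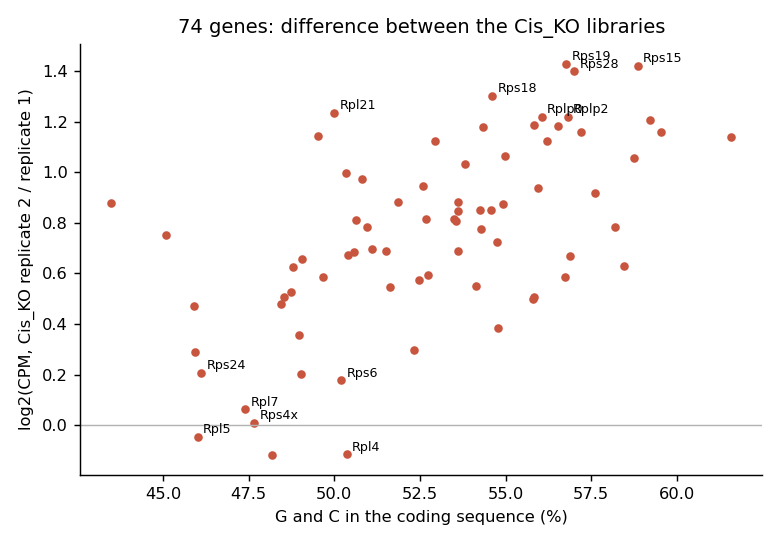
Each point is 1 of 74 members, the x axis is the percentage of G and C in the coding sequence, and the y axis is log2 of the CPM in Cis_KO replicate 2 over replicate 1. Members with more G and C tended to be higher in replicate 2, from Rpl5 and Rpl4 near 0 to Rps19, Rps28 and Rps15 at the top.

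In the test across genes, few members differed between genotypes. All but Rpl10l of the 83 members passed the filter on low counts, which gave 82 tested. In Cis_Stat6_KO against WT, 0 members were higher and 1, Rpl29, lower, where 0.0656% of all genes were called in each direction. In Cis_KO against WT, Rpl30 was higher and Rpl29 lower, where 0.119% of all genes were called higher and 0.155% lower. In Cis_Stat6_KO against Cis_KO, edgeR called 0 members, where 0.358% of all genes were called, 0.239% higher and 0.119% lower. There 33 members had an unadjusted p under 0.05, 1 higher and 32 lower, which is 40.2% of the members beside 18.3% of all genes, and without Cis_KO replicate 2 the number was 19, or 23.2% beside 17.1%. DESeq2 called 18, 1 higher and 17 lower, where it called 3.13% of all genes higher and 2.82% lower. With the copies added to each member, edgeR called 0 members in each of the 3 comparisons, while 0, 11 and 34 had an unadjusted p under 0.05 in Cis_Stat6_KO against WT, Cis_KO against WT and Cis_Stat6_KO against Cis_KO, where 5.25%, 11.3% and 18.6% of all genes had one. The shares of all genes called in that fit were 0.115%, 0.273% and 0.371% in the same order.

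The size of the family's difference in the comparisons with Cis_KO depended on the 1 library that stood apart. The median log2 fold change of the 82 members was -0.10 in Cis_Stat6_KO against WT, with 26 positive and 56 negative, beside a median of 0.00 over all genes. It was 0.54 in Cis_KO against WT, with 73 positive and 9 negative, beside -0.05 over all genes. In Cis_Stat6_KO against Cis_KO it was -0.60, with 10 positive and 72 negative, beside 0.05. Without Cis_KO replicate 2, the medians for Cis_KO against WT and Cis_Stat6_KO against Cis_KO were 0.082 and -0.19, and the members were 61 positive against 21 negative and 19 positive against 63 negative. Without Cis_KO replicate 1 they were 0.82 and -0.88, and edgeR then called 58 members higher and 2 lower in Cis_KO against WT, where 11.3% of all genes were called higher and 17.4% lower, with the spread taken from the other genotypes alone.

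The 2 libraries of each genotype did not overlap for 7 members higher and 31 lower in Cis_Stat6_KO than in WT, where the share of all genes was 23.3% higher and 23.5% lower. They did not overlap for 37 higher and 2 lower in Cis_KO than in WT, where the shares were 21.4% and 25.9%. In Cis_Stat6_KO against Cis_KO the counts were 5 higher and 46 lower, where the shares were 27.9% and 22.5%. The counts of 31 lower in Cis_Stat6_KO than in WT, 37 higher in Cis_KO than in WT and 46 lower in Cis_Stat6_KO than in Cis_KO, each of 82, were above the share of all genes, and the comparisons with a common group share its libraries. With Cis_KO replicate 1 alone, 38 members were higher and 6 lower than both WT libraries, where the shares of all genes were 36.3% and 36.8%, and 12 were higher and 47 lower in both Cis_Stat6_KO libraries than in it, where the shares were 37.7% and 36.3%.

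**Figure D4:**
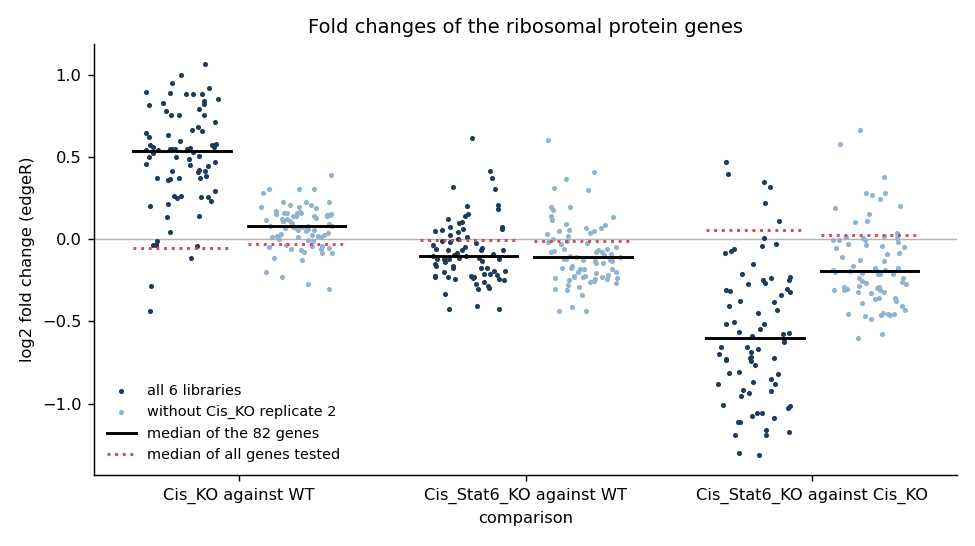
Points are edgeR log2 fold changes of 78 members (Rpl29, Rpl30, Rpl34 and Rpl3l lie outside the frame and were left out) in the 3 comparisons, with all 6 libraries and without Cis_KO replicate 2. Solid bars are medians of all 82 members and dotted bars medians of all genes tested, and the distance between them shrinks in the comparisons with Cis_KO once replicate 2 is left out.

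Beside Rpl29 and Rpl30, the members with the lowest p in Cis_Stat6_KO against WT were Rpl7a, at 0.62 ± 0.30, and Rps7, at 0.42 ± 0.25, both with an adjusted p of 1 by edgeR's quasi-likelihood test. Rpl7a and its copies summed to 666 and 657 CPM in Cis_Stat6_KO and 718 and 731 CPM in WT, the opposite order to the gene alone. Rps7, of the small subunit, had 406 and 470 CPM in Cis_Stat6_KO, 361 and 541 CPM in Cis_KO, and 293 and 362 CPM in WT. In Cis_Stat6_KO against Cis_KO, the stalk gene Rplp2 was at -1.30 ± 0.37 and Rps2, of the small subunit, at -1.01 ± 0.31, with adjusted p-values of 0.192 and 0.208 by the same edgeR test. They were at -0.58 ± 0.14 and -0.49 ± 0.14 without Cis_KO replicate 2. Rplp2 had 347 and 349 CPM in Cis_Stat6_KO, against 515 and 1198 CPM in Cis_KO. Rps2 had 683 and 697 CPM in Cis_Stat6_KO, against 960 and 1813 CPM in Cis_KO. The groups did not overlap for Rplp2 or Rps2, and the higher Cis_KO library was replicate 2. Of the stalk base, Rplp0 had 555 and 546 CPM in Cis_Stat6_KO, 717 and 1668 CPM in Cis_KO, and 633 and 658 CPM in WT.

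Members with roles outside the ribosome followed the family or stayed behind it. Rpl13a, which in human monocytes is released from the ribosome after interferon gamma, had 418 and 435 CPM in Cis_Stat6_KO, 579 and 823 CPM in Cis_KO, and 429 and 509 CPM in WT. Rps3, which also takes part in DNA repair, had 822 and 910 CPM in Cis_Stat6_KO, 1034 and 1821 CPM in Cis_KO, and 869 and 972 CPM in WT. Rpl22, which binds RNA and is needed for T cell development in mice, had 193 and 244 CPM in Cis_Stat6_KO, 211 and 295 CPM in Cis_KO, and 200 and 223 CPM in WT. None of these passed the adjusted threshold in any comparison. Rps27a, which is made as a fusion with ubiquitin, had 439 and 490 CPM in Cis_Stat6_KO, 427 and 522 CPM in Cis_KO, and 373 and 434 CPM in WT, so that its Cis_Stat6_KO libraries lay above both WT libraries, with a change of 0.20 ± 0.19.

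The paralogues differed widely in level. Rpl3l, which in muscle takes the place of Rpl3, had 88 and 56 counts in Cis_Stat6_KO, 0 and 0 in Cis_KO, and 16 and 58 in WT. Against a limit of 3 counts over the Cis_KO group, its level was at least 43.9-fold higher in Cis_Stat6_KO than in Cis_KO and at least 21.0-fold lower in Cis_KO than in WT, with adjusted p-values of 0.125 and 0.262 by edgeR's quasi-likelihood test. The edgeR adjusted p in Cis_Stat6_KO against Cis_KO was 0.0458 without Cis_KO replicate 2, with the spread of the single Cis_KO library taken from the other genotypes. These counts are small beside the 43699 to 64514 counts of Rpl3 in any library of the series. Rpl10l, which replaces the X-linked Rpl10 in male germ cells, had 0 counts in all 6 libraries, which allows at most 0.0433 to 0.0685 CPM per library, a limit for counting error only. Rpl39l, another germ-cell paralogue, had 1.44 and 3.21 CPM in Cis_Stat6_KO, 2.83 and 5.07 CPM in Cis_KO, and 2.23 and 3.14 CPM in WT. Rps27l, a target of p53, had 49.1 and 72.2 CPM in Cis_Stat6_KO, 50.8 and 93.3 CPM in Cis_KO, and 46.4 and 47.1 CPM in WT. Rps4x, the X-linked small-subunit gene, had 862 and 894 CPM in Cis_Stat6_KO, 926 and 931 CPM in Cis_KO, and 836 and 1067 CPM in WT, and Rps4l had 23.5 and 25.6 CPM in Cis_Stat6_KO, 28.6 and 43.8 CPM in Cis_KO, and 30.9 and 29.5 CPM in WT. Rpl6l shares 98.7% of its sequence with Rpl6 and Rpl32l 96.04% with Rpl32, so the split of counts within these pairs is uncertain.

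Other genes of the translation machinery were set beside the family. The 6 ribosomal protein genes outside the symbol rule had medians of -0.05 in Cis_Stat6_KO against WT, 0.32 in Cis_KO against WT and -0.43 in Cis_Stat6_KO against Cis_KO on the log2 scale, with 0 called by edgeR in each comparison and at most 2 with an unadjusted p under 0.05. Among them Fau, the source of the small-subunit protein eS30, had 445 and 476 CPM in Cis_Stat6_KO, 613 and 1511 CPM in Cis_KO, and 538 and 558 CPM in WT. It had the high level in Cis_KO replicate 2. The summed level of the 18 translation elongation factors and other 5′ TOP genes was not high there. It was 17987 and 17964 CPM in Cis_Stat6_KO, 18728 and 17006 CPM in Cis_KO, and 17604 and 20476 CPM in WT. The medians of the 18 were -0.14, 0.02 and -0.07 in the same order of comparisons. In Cis_KO against WT 10 of them were positive and 8 negative, and some were high in Cis_KO replicate 2. There Eif3k had 402 CPM and at most 178 CPM elsewhere, and Rack1 1688 CPM and at most 1225 CPM elsewhere. The abundant Eef2 had 2677 CPM there and 1985 to 3100 CPM elsewhere. The 78 mitochondrial ribosomal protein genes tested had medians of 0.08, 0.45 and -0.30, the 35 ribosome biogenesis genes -0.03, 0.19 and -0.28, the 13 growth regulators of ribosome synthesis tested -0.08, 0.11 and -0.32, and the 11 ribosome quality and stress genes found 0.13, -0.11 and 0.13. With all 6 libraries, edgeR called 0 genes of each of these lists in each comparison. The number with an unadjusted p under 0.05 was at most 5 of 18, 13 of 78, 12 of 35, 4 of 13 and 5 of 11 for the elongation, mitochondrial, biogenesis, regulator and quality lists. Each of these maxima was in Cis_Stat6_KO against Cis_KO, where 18.3% of all genes had such a p. Without Cis_KO replicate 2, the medians in Cis_KO against WT and Cis_Stat6_KO against Cis_KO were 0.013 and 0.14 for the genes outside the symbol rule, 0.088 and -0.13 for the elongation list, 0.17 and -0.076 for the mitochondrial list, 0.11 and -0.21 for the biogenesis list, -0.0025 and -0.21 for the regulators, and -0.15 and 0.11 for the quality list. The median of the 6 genes outside the symbol rule thus changed sign in Cis_Stat6_KO against Cis_KO, and that of the regulators in Cis_KO against WT.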

How the data were processed

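RNA of 6 mouse lavage samples, 2 per genotype, was analysed from the deposited files. The authors deposited raw read counts per gene, and FPKM values rounded to 0.01, per the file headers. The genome build is mm10 per the submitters' processing notes; the sources used here do not name the aligner, counter, strandedness or handling of reads with several matches, so overlapping and antisense genes are uncertain. Counts were tested with edgeR 4.0.16 (R 4.3.3): TMM, filterByExpr (16765 genes), 1 quasi-likelihood fit on all 6 libraries with genotype, two-sided, Benjamini-Hochberg adjusted p under 0.05. The fit has 3 residual degrees of freedom. The fit was tested on simulated data. Copies were found with BLAST+ 2.17.0 against GENCODE M21 transcripts (identity at least 95%, coverage at least 80%, sense strand). DESeq2 1.42.0, limma 3.58.1, other scalings and filters, FPKM, a replicate block and each library left out were alternatives. Described genes were Rpl29, Rpl30, those called, highest in FPKM, most or least apart from the family, lowest in p, paralogues, and genes of known roles. Members and lists were chosen with earlier results of these data known. Summing all near-identical copies, and counting members without overlap for Cis_KO replicate 1 alone, were added after seeing the data. The samples' labels share replicate numbers 1 and 2 with no stated meaning. A few named genes are not reported here.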

Additional observations from a re-analysis of the deposited data

How the results depend on the processing

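All counts below run in the order Cis_Stat6_KO against WT, Cis_KO against WT, Cis_Stat6_KO against Cis_KO. The counts of all genes called, 22, 46 and 60, were 321, 545 and 1560 with DESeq2, 385, 1021 and 1840 with no filter, 277, 6 and 5 with only the genotypes compared, 52, 74 and 191 on log2(FPKM + 1), 1, 2 and 2 on the same scale unfiltered, and 0 to 350, 3 to 5349 and 4 to 5999 with 1 library left out. Library size alone gave 26 and 29 in the comparisons with Cis_KO, and log2(FPKM + 0.1) gave 35 against WT and 99 against Cis_KO in Cis_Stat6_KO. With the replicate block the counts were 12, 24 and 28, and 0, 2 and 0 members. Under it 3, 16 and 40 members had an unadjusted edgeR p under 0.05, beside 4.52%, 9.15% and 15.6% of all genes. The medians of members kept their signs. Deviations of same-numbered libraries correlated at -0.07 to 0.01, which does not show a pairing. Of the 79 members with a mean of at least 5 CPM, however, 70 in Cis_Stat6_KO, 75 in Cis_KO and 71 in WT were higher in replicate 2. Their median log2 differences were 0.15, 0.78 and 0.18. Whether same-numbered libraries share an effect was not tested. The counts of members called, 1, 2 and 0, were 2, 3 and 18 with DESeq2, 2, 16 and 28 with no filter, 2 and 1 against WT with limma-voom, 2 and 0 with only the genotypes compared, 0 and 0 on log2(FPKM + 1) unfiltered, and 0 to 2, 0 to 60 and 0 to 57 with 1 library left out. In Cis_Stat6_KO against WT they were 2 with library size alone, without rRNA-like, haemoglobin and mitochondrial genes, and on both filtered FPKM scales. Named or described pseudogenes added gave 1 in Cis_KO against WT. Near-identical copies added, all or the largest alone, gave 0 against WT. Of the 26200 genes tested with no filter, 1.47%, 3.9% and 7.02% were called. DESeq2 tested as many and called 1.23%, 2.08% and 5.95%. With 1 library left out, the highest counts of members and of all genes in the comparisons with Cis_KO came from the same fit. That fit left out Cis_KO replicate 1.

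With copies added and Cis_KO replicate 2 left out, the calls were 336, 184 and 508 genes and 0, 0 and 1 members, and the member medians in the comparisons with Cis_KO were 0.080 and -0.19. Leaving out 1 library leaves its genotype with a single one, assumed to vary like the others, so those counts are no firmer support. With 1 library left out the medians ran from -0.18 to -0.01, 0.082 to 0.82 and -0.88 to -0.19. Without rRNA-like, haemoglobin and mitochondrial counts, the mean share of counts on members was 3.44% in Cis_Stat6_KO, 5.21% in Cis_KO and 3.82% in WT. The Rpl29 change in Cis_KO against WT turned to 0.71 with copies summed and 0.18 with Cis_KO replicate 2 also left out. With the largest copy alone added it was -0.01. In Cis_Stat6_KO against Cis_KO, where neither gene was called, Rpl29 turned to -0.72 with copies summed, -0.70 with the largest copy, -0.20 with copies summed and Cis_KO replicate 2 left out, and -0.38 to 0.59 with 1 library left out. Rpl30 turned to -0.33 with copies summed, -0.28 with the largest copy, -0.059 with named or described pseudogenes, and -0.37 to 0.66 with 1 library left out. Rpl30 in Cis_Stat6_KO against WT passed the threshold under 10 alternatives and missed it under 14. For these changes the cause was not tested. Counts of 0 limit Rpl10l and Rpl3l only.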
